A study of Mus musculus with 8 samples.

Results

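The genes examined here are 10 markers of the mesothelium, the sheet of flat cells that covers visceral fat and other organs of the body cavities. They were chosen by name (Msln, Upk3b, Upk1b, Krt8, Krt18, Krt19, Krt7, Wt1, Lrrn4 and Gpm6a) and taken from a table of 34866 genes by Ensembl identifier. All 10 were in the table and all 10 passed the low-count filter, which kept 12480 genes. The table comes from the epididymal white fat of male mice, a visceral depot attached to the epididymis. The 4 control samples carry loxP sites in both copies of the aromatase gene (Aromatase flox/flox). The 4 knockout samples carry the same floxed alleles and the aP2-Cre transgene (aP2-Cre;Aromatase flox/flox). In aP2-Cre mice the Fabp4 promoter drives Cre recombinase in adipocytes, and this promoter is also active in some other cells. All groups used here carry the floxed alleles, and mice with Cre alone were not analysed here, which means that transgene and deletion cannot be told apart. The age of the mice is not given in the sources used here. Aromatase (gene Cyp19a1) makes oestrogens from androgens, and the comparison was made to look for its target genes in fat that act on phosphorus metabolism.

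Mesothelial cells line the serous cavities, secrete a lubricating fluid and carry features of both epithelium and mesenchyme. They hold simple-epithelium keratins inside the cell, display glycoproteins such as mesothelin at the surface, and keep the transcription factor WT1 from the embryo into the adult. Among fat depots, mesothelium is known to cover visceral depots such as the epididymal pad and to be lacking in subcutaneous fat. Keratins 8, 18, 19 and 7 are not restricted to it: most simple epithelia make them.

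The libraries held 1538427 to 3045488 estimated counts in the control group and 2237345 to 3053565 in the knockout group, and control replicate 4 was the smallest. Adipocyte markers were high in every library, with a summed level over 15 genes of 71535 to 91170 CPM in control libraries and 60777 to 86691 CPM in knockout libraries (CPM is the count scaled to a common library size, after edgeR's TMM correction for library composition). Cyp19a1 had 1 to 5.017 estimated counts in the control and 0 to 4 in the knockout libraries, too few to check the deletion (exact permutation p = 0.629, two-sided, where 4 against 4 samples cannot give less than 0.0286). The labels list the libraries as separate samples but do not say that each is from another mouse, so p-values measure the spread between these libraries.

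No mesothelial marker differed between the genotypes beyond the spread of the libraries. Of the 10 genes, 0 had an adjusted p under 0.05 and 0 had an unadjusted p under 0.05 in edgeR's quasi-likelihood test. DESeq2 and limma-voom also gave 0 by both thresholds. Over all 12480 genes tested, 0.168% had an adjusted p under 0.05 and 6.39% had an unadjusted p under 0.05. The log2 fold changes (knockout minus control) ran from -0.61 for Krt8 to 0.39 for Gpm6a, with 4 genes higher and 6 lower. Their median was -0.08, beside -0.00 for all genes tested, of which 49.7% were higher. For every member the libraries of the 2 genotypes overlapped, and over all genes 4.24% did not overlap. The libraries of each genotype differed among themselves: Krt8, Krt18, Krt19 and Wt1 were highest in control replicate 4, Upk3b, Upk1b, Lrrn4, Gpm6a and Krt7 in knockout replicate 4, and Msln in control replicate 2. The highest library thus does not divide the keratins from the other members.

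The promoters of 3 members are shown because these genes mark the contrast between the libraries: Krt8 and Krt18, which followed each other, and Upk3b, which did not follow them. Sequences are from RefSeq (GRCm38.p6) and run 5′ to 3′ toward the gene. Each starts 250 bases before the RefSeq start site and is shown up to the first base of the gene in GENCODE M21. Krt8 is chr15:102004483-102004592 on the minus strand, Krt18 is chr15:102027966-102028179 on the plus strand, and Upk3b is chr5:136038246-136038495 on the plus strand. Capitals mark the reverse complement of GGAAGT, a core bound by ETS transcription factors.
Krt8: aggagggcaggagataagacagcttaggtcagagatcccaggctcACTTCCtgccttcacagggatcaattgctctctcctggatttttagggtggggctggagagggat
Krt18: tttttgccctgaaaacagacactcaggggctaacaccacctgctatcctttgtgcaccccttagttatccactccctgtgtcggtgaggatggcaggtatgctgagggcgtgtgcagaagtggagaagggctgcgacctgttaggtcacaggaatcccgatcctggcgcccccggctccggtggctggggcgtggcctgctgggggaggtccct
Upk3b: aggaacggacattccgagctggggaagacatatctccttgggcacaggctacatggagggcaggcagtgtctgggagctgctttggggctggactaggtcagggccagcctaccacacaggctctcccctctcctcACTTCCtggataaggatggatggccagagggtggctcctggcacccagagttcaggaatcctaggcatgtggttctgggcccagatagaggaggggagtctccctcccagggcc

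Promoter windows of 250 bases were found for 6 of the 10 members (Upk3b, Krt8, Krt18, Krt7, Lrrn4 and Gpm6a, the last with 2 start sites). They were searched on both strands for the TATA box TATAAA, the GC box GGGCGG, the CCAAT box CCAAT, the AP-1 site TGANTCA and the ETS core GGAAGT. No match of one motif overlapped a match of another in these windows. By the GENCODE M21 positions the whole Krt7 window lies inside the gene, as do parts of the Krt8, Krt18 and Lrrn4 windows. The ETS core was in the windows of Krt8, Upk3b and Krt7 and in 19.7% of 32851 windows of that length. The Krt7 window held 4 GC boxes, a motif present in 32.7% of windows, and one Gpm6a window held a TATA box, present in 12.4%. Krt18 and Lrrn4 held none of the 5. The CCAAT box (33.8% of windows) and the AP-1 site (6.75%) were in none of the members' windows. A match is a run of letters, not a bound site.

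Keratins, the filament proteins of epithelia, are described first. Krt8 and Krt18 encode the type II and type I keratins that pair into the filaments of simple epithelia, and their genes are neighbours on chromosome 15 (101996698 to 102004482 and 102028180 to 102032027, GRCm38). Krt8 was at 26.2, 63.2, 71.3 and 160 CPM in control replicates 1 to 4 and at 22, 51.2, 101 and 29.8 CPM in knockout replicates 1 to 4. Control replicate 4 and knockout replicate 3 were high, while control replicate 1 and knockout replicates 1 and 4 were low, so each genotype held both high and low libraries. The means were 80.2 ± 56.8 CPM in control libraries and 51.1 ± 35.7 CPM in knockout group (SD, n = 4). The log2 fold change was -0.61 ± 0.687 (SE, edgeR adjusted p = 0.942). The 95% interval of that change, -2.26 to 1.04, is wide. Without control replicate 4 the log2 fold change of Krt8 was -0.05, and without knockout replicate 3 it was -1.18.

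Krt18 was at 23.8, 36, 42.2 and 80.8 CPM in control replicates 1 to 4 and at 16, 39.9, 52 and 26.9 CPM in knockout replicates 1 to 4. The same 2 libraries were on top, control replicate 4 followed by knockout replicate 3. The log2 fold change of Krt18 was -0.39 ± 0.455 (SE, edgeR adjusted p = 0.943), and it was 0.00 without control replicate 4. Krt19, a type I keratin on chromosome 11 (100140810 to 100148665) that marks ducts and mesothelium, was at 8.73, 35.1, 26.9 and 46.2 CPM in control libraries and 16.9, 26.2, 41.5 and 26.2 CPM in knockout libraries. Again control replicate 4 and knockout replicate 3 were highest, and control replicate 1 was lowest. The means of Krt19 were nearly equal, at 29.2 ± 15.8 and 27.7 ± 10.2 CPM (SD, n = 4), with a log2 fold change of -0.03 and an edgeR adjusted p of 0.998.

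Krt7, the type II partner in many ductal and glandular epithelia, lies on chromosome 15 (101411043 to 101430313) but had another order of libraries. Its levels were 4.22, 11, 3.94 and 9.75 CPM in control replicates 1 to 4 and 8.22, 7.33, 7.3 and 11.3 CPM in knockout replicates 1 to 4. Knockout replicate 4 was highest, where Krt8 was low, and control replicates 1 and 3 stood lowest. The log2 fold change of Krt7 was 0.27 ± 0.388 (SE, edgeR adjusted p = 0.949). These values rest on 8.78 to 34.4 estimated counts a library.

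**Figure D1:**
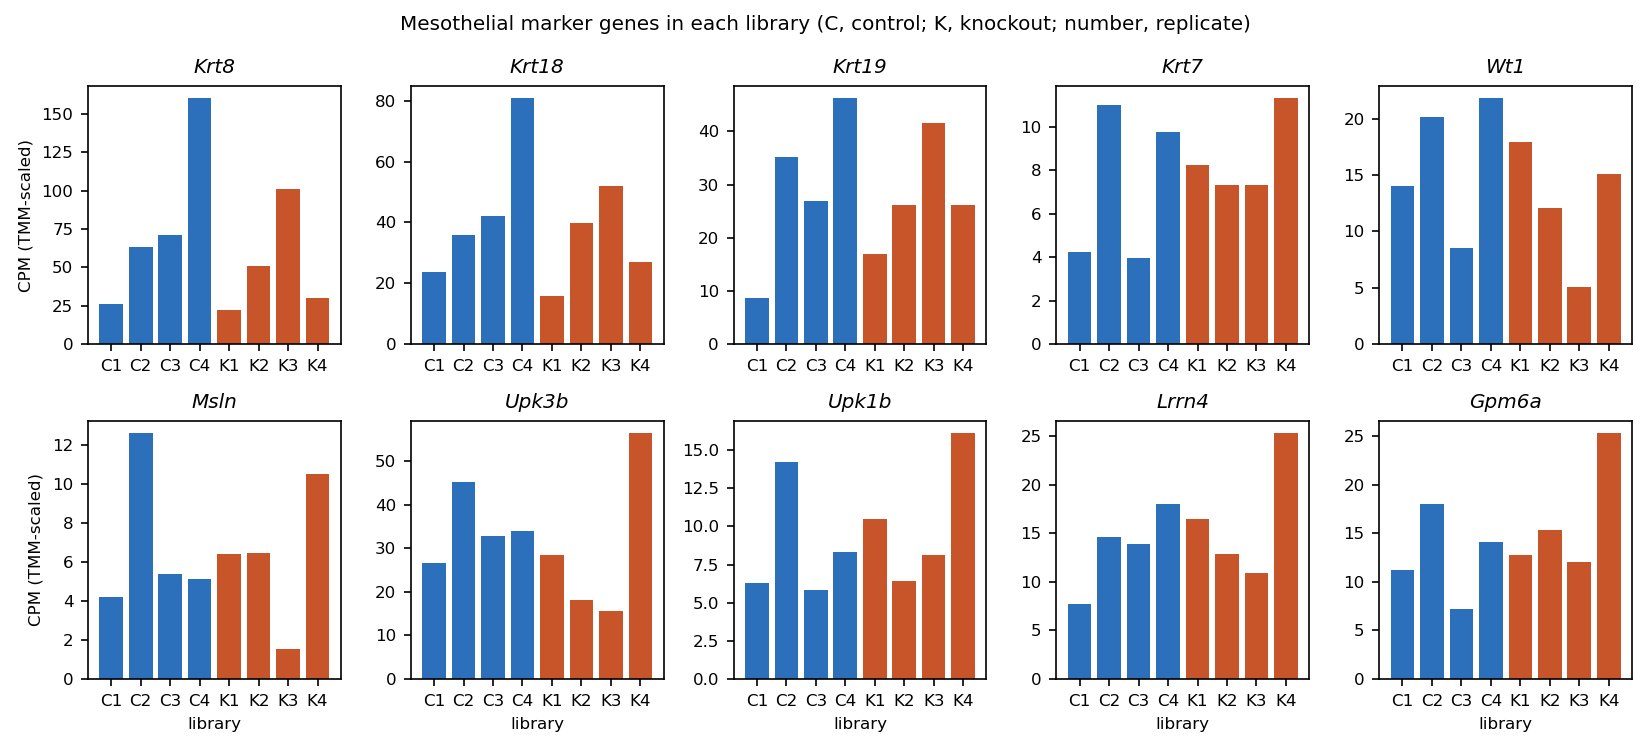
Level of each of the 10 mesothelial marker genes (y axis, CPM on TMM-scaled library sizes) in the 4 control (C, blue) and 4 knockout (K, orange) libraries, one bar a library. Krt8 reaches 160 CPM in control replicate 4 and 101 CPM in knockout replicate 3, whereas Upk3b reaches 56.4 CPM in knockout replicate 4 and 15.5 CPM in knockout replicate 3.

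Surface proteins of the mesothelium followed. Msln encodes mesothelin, a glycoprotein anchored to the cell surface by a lipid (chromosome 17, 25748613 to 25754378). It was at 4.19, 12.6, 5.38 and 5.13 CPM in control replicates 1 to 4 and at 6.41, 6.45, 1.55 and 10.5 CPM in knockout replicates 1 to 4. Control replicate 2 and knockout replicate 4 were high, and knockout replicate 3, with 4 estimated counts, was lowest. The log2 fold change of Msln was -0.12 ± 0.509 (SE, edgeR adjusted p = 0.985).

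Upk3b encodes uroplakin 3B, a membrane protein of the family that plates the bladder surface (chromosome 5, 136038496 to 136046487). It was at 26.6, 45.2, 32.7 and 34 CPM in control libraries and at 28.4, 18.2, 15.5 and 56.4 CPM in knockout libraries. The knockout libraries were split, with replicate 4 above every control library and replicates 2 and 3 below every one. The means of Upk3b were 34.6 ± 7.76 and 29.6 ± 18.7 CPM (SD, n = 4), with a log2 fold change of -0.21 and an edgeR adjusted p of 0.968. Without knockout replicate 4 the log2 fold change was -0.75 (edgeR unadjusted p = 0.00905, adjusted p = 0.55), and without knockout replicate 3 it was 0.01. Upk3b was the sole member to reach an unadjusted p under 0.05 in any of the fits that left out 1 library.

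Upk1b encodes a second uroplakin, of the tetraspanin family (chromosome 16, 38773184 to 38800328). Its levels were 6.29, 14.2, 5.83 and 8.33 CPM in control libraries and 10.5, 6.45, 8.15 and 16.1 CPM in knockout libraries. As for Upk3b, the top libraries were knockout replicate 4 and control replicate 2. The log2 fold change of Upk1b was 0.26 ± 0.377 (SE, edgeR adjusted p = 0.949). The other 4 uroplakins listed, Upk1a, Upk2, Upk3a and Upk3bl, failed the low-count filter. Their summed level was 0 to 2.69 CPM in control libraries and 0 to 2.29 CPM in knockout libraries. The limit that a count of 0 allows is 3 counts (counting error only). On the full library totals, without the TMM correction used for the sums, 3 counts correspond to 0.982 to 1.95 CPM.

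Lrrn4 encodes a leucine-rich repeat protein of the membrane (chromosome 2, 132868305 to 132880891). It was at 7.69, 14.6, 13.9 and 18 CPM in control libraries and at 16.5, 12.9, 10.9 and 25.3 CPM in knockout libraries. Gpm6a encodes a membrane glycoprotein best known from neurons (chromosome 8, 54954843 to 55060871). Gpm6a was at 11.2, 18, 7.18 and 14.1 CPM in control libraries and at 12.8, 15.3, 12 and 25.3 CPM in knockout libraries. Knockout replicate 4 was highest for Lrrn4 and for Gpm6a, and the control libraries spanned the other 3 knockout libraries in both genes. The log2 fold changes were 0.31 ± 0.317 for Lrrn4 (SE, edgeR adjusted p = 0.939) and 0.39 ± 0.319 for Gpm6a (SE, edgeR adjusted p = 0.922). Without knockout replicate 4 they were 0.01 for Lrrn4 and 0.09 for Gpm6a.

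Wt1 is the transcription factor of the set, needed for the coelomic epithelium and for several organs that arise from it (chromosome 2, 105126529 to 105173616). It was at 14, 20.1, 8.52 and 21.8 CPM in control libraries and at 17.9, 12.1, 5.04 and 15.1 CPM in knockout libraries. Control replicates 4 and 2 were high and knockout replicate 3 and control replicate 3 were low. The log2 fold change of Wt1 was -0.35 ± 0.372 (SE, edgeR adjusted p = 0.939).

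**Figure D2:**
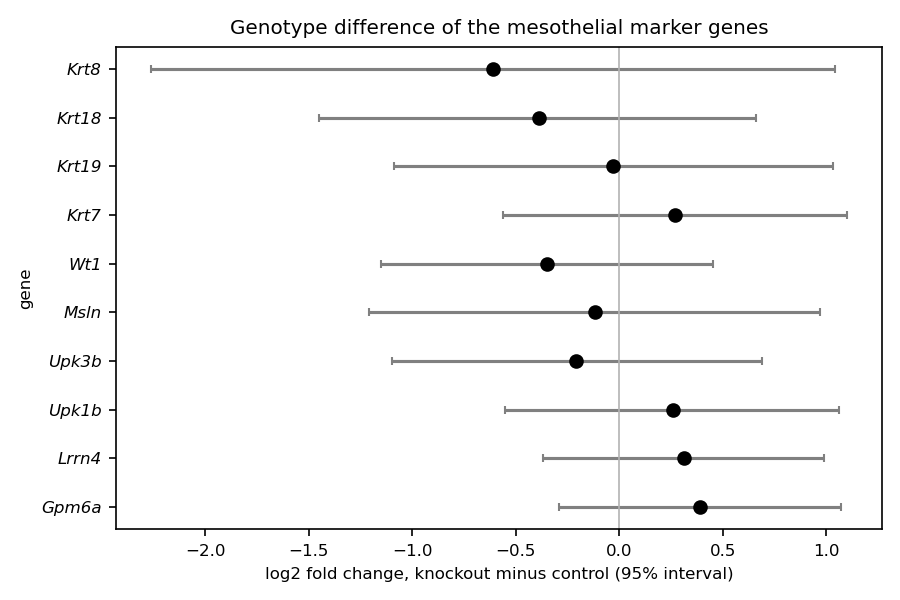
Log2 fold change of each mesothelial marker gene (x axis, knockout minus control) from edgeR, with its 95% interval (bars). Every interval includes 0, from Krt8 (-2.26 to 1.04) to Gpm6a (-0.29 to 1.07).

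The spread between libraries was larger than counting error in all 10 genes. Measured as the chi-square of the counts within genotypes per degree of freedom, where counting error alone gives about 1, it was 75 for Krt8, 22.3 for Krt18, 18.4 for Upk3b and 15 for Krt19. It was 2.82 to 5.52 for the other 6, and the median of all genes tested was 2.62. Of all genes tested, 99% had a smaller value than Krt8 and 53.8% a smaller value than Krt7. This measure grows with a gene's counts, so it describes each gene and does not rank them. The highest library exceeded the lowest by 7.29-fold for Krt8, 8.09-fold for Msln, 5.28-fold for Krt19 and 5.04-fold for Krt18, and by 2.76-fold to 4.32-fold for the other 6. In a bulk sample, fewer cells of a type and less RNA per cell cannot be told apart.

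Members were then compared with each other across the 8 libraries, as log2 CPM (prior count 2). Of the 45 pairs, 33 had a Pearson r above 0 and 5 an r of at least 0.8. Krt8 and Krt18 had r = 0.97 (exact permutation p = 9.92e-05, adjusted p = 0.00446 over 45 pairs) and Spearman rho = 0.98 (exact permutation p = 0.000397, adjusted p = 0.0179). Leaving out the 2 libraries farthest from the median of Krt8 gave the same r of 0.97. This was the sole pair to pass an adjusted p of 0.05 by Pearson's r. Krt18 ranked 26 among 12479 other genes by its r with Krt8, and 4.66% of those genes had an r of 0.8 or more with Krt8, so many genes shared the pattern of Krt8. The same share was 4.3% for Krt18, 2.42% for Krt19, 0.641% for Msln, 0.873% for Upk3b, 0.761% for Upk1b, 0.721% for Krt7, 0.673% for Wt1, 0.601% for Lrrn4 and 0.609% for Gpm6a.

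By Spearman's rho 3 more pairs passed. Krt8 and Krt19 had rho = 0.93 (exact permutation p = 0.00223, adjusted p = 0.0251) and r = 0.83 (exact permutation p = 0.00813, adjusted p = 0.0926), with r = 0.79 once the 2 farthest libraries were left out. Upk1b and Krt7 had rho = 0.95 (exact permutation p = 0.00114, adjusted p = 0.0251) and r = 0.84 (exact permutation p = 0.0121, adjusted p = 0.109), with r = 0.76 without the 2 farthest libraries. Krt7 and Gpm6a had rho = 0.93 (exact permutation p = 0.00223, adjusted p = 0.0251) and r = 0.86 (exact permutation p = 0.00248, adjusted p = 0.0558), with r = 0.77 without the 2 farthest libraries. The remaining pair with r of 0.8 or more, Upk1b with Gpm6a (r = 0.82), passed by neither measure, nor did Msln with Upk3b, whose r of 0.80 is rounded up from just under that level. Their r was 0.47 and 0.57 without the 2 farthest libraries, so these relations rest on those libraries.

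Krt18 and Krt19 passed by neither measure (r = 0.77, exact permutation p = 0.0246, adjusted p = 0.158; rho = 0.86, exact permutation p = 0.0107, adjusted p = 0.0964). The keratins Krt8 and Krt18 had r between -0.34 and 0.12 with Krt7, Wt1, Msln, Upk3b, Upk1b, Lrrn4 and Gpm6a. With the same 7 members Krt19 had r from -0.12 for Wt1 to 0.54 for Krt7. For Krt8 and Upk3b r was -0.19 and rho 0.00 (exact permutation p = 0.638 and 1, adjusted p = 0.816 and 1), and r was 0.35 without the 2 libraries farthest from the median of Upk3b. For Krt8 and Msln r was -0.34 and rho -0.31 (exact permutation p = 0.42 and 0.462, adjusted p = 0.701 and 0.799), with r = -0.28 without the 2 farthest libraries. With 8 libraries these values do not show that the genes are unrelated. The 7 other members had r of 0.41 to 0.86 with one another, all above 0, and 6 of those 7 had only 4 to 77 estimated counts a library, Upk3b having 40 to 172.

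**Figure D3:**
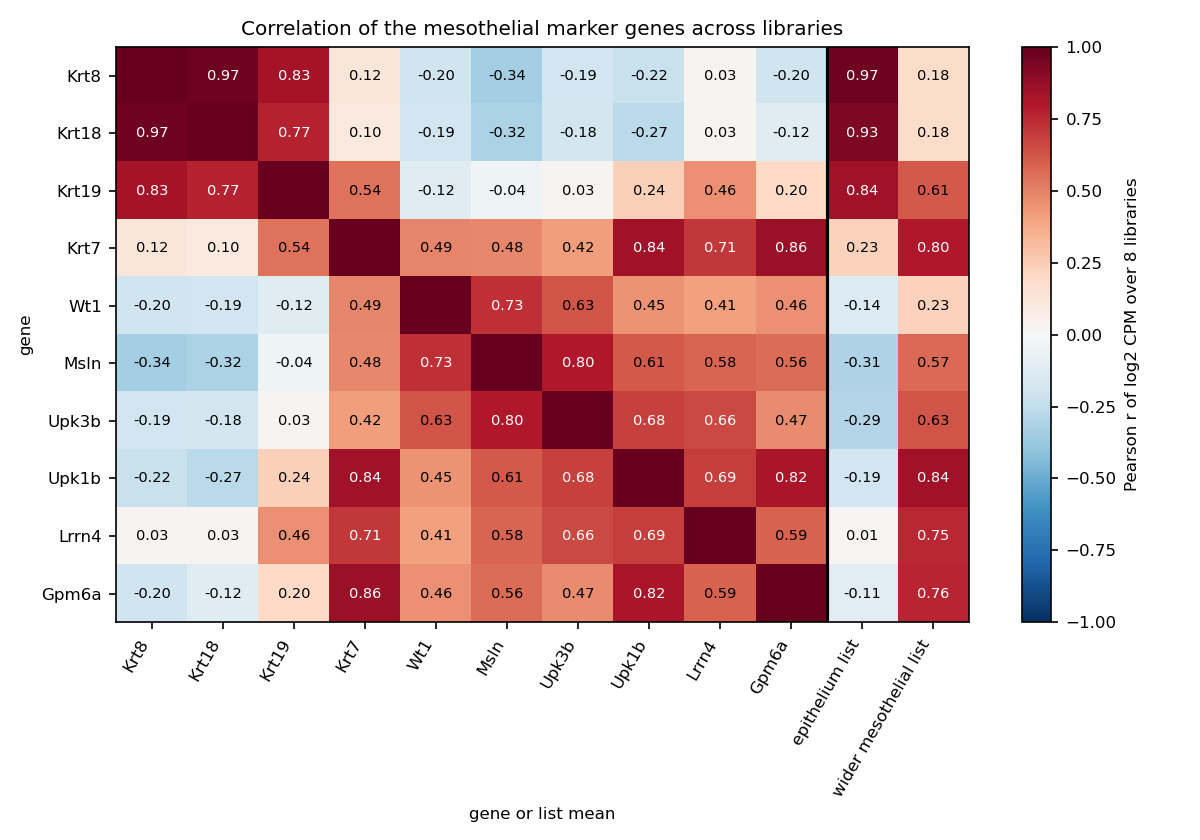
Pearson r of log2 CPM over 8 libraries between the mesothelial marker genes, and in the last 2 columns between each gene and the mean of the general epithelium list (12 genes) or the wider mesothelial list (18 genes). Krt8, Krt18 and Krt19 have r of 0.77 to 0.97 among themselves and of 0.84 to 0.97 with the epithelium list. The other 7 genes have r of -0.31 to 0.23 with that list.

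Because keratins are made by other epithelia too, each member was set beside a list of 17 general epithelium genes (12 past the low-count filter), among them the adhesion gene Epcam, the cadherin Cdh1, the claudins Cldn3 and Cldn7 and the ETS factors Elf3 and Ehf. This comparison, like the next with wider mesothelial genes, was chosen after the values had been seen, and p-values were adjusted over the 20 relations of both. The list's mean log2 CPM was highest in control replicate 4 (4.61) and knockout replicate 3 (4.25) and lowest in control replicate 1 (2.91), knockout replicate 4 (2.98) and knockout replicate 1 (3.00). The other 3 libraries lay at 3.67 to 3.92, and no part of this scale held 6 libraries in which r could be computed apart. Krt8 followed the list with r = 0.97 (exact permutation p = 0.000719, adjusted p = 0.00868; rho = 0.86, exact permutation p = 0.0107, adjusted p = 0.103). Krt18 had r = 0.93 (exact permutation p = 0.000868, adjusted p = 0.00868; rho = 0.83, exact permutation p = 0.0154, adjusted p = 0.103). Krt19 had r = 0.84 (exact permutation p = 0.00362, adjusted p = 0.0241; rho = 0.88, exact permutation p = 0.00724, adjusted p = 0.103). Thus all 3 passed by Pearson's r and none by Spearman's rho.

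Without control replicates 1 and 4, the 2 libraries farthest from the median of the list, r was 0.94 for Krt8, 0.88 for Krt18 and 0.83 for Krt19. As deviations from the genotype means r was 0.97, 0.93 and 0.88. For the other 7 members r with the list ran from -0.31 for Msln to 0.23 for Krt7, with exact permutation p-values of 0.472 to 0.985 and adjusted p-values of 0.788 to 0.985. Spearman's rho of those 7 lay between -0.14 and 0.14. Without control replicates 1 and 4 their r ran from -0.86 for Lrrn4 to -0.26 for Krt7, all below 0. The values near 0 for these members thus depend on those 2 libraries. Of the 12 epithelium genes, 7 had an r of 0.8 or more with Krt8 and 0 had one with Upk3b, beside 4.66% and 0.873% of all genes tested.

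Epcam and Cdh1 show the pattern, and both were singled out after their values were seen. Of the 12 tested genes, Ap1m2, Spint1, Grhl2, St14 and Prss8 followed Krt8 less closely, with r of 0.47 to 0.78. Epcam was at 16.1, 50.2, 41.3 and 93.6 CPM in control replicates 1 to 4 and at 23.4, 43.2, 68.3 and 18.7 CPM in knockout replicates 1 to 4. Control replicate 4 and knockout replicate 3 were again on top, as for Krt8. Cdh1 was at 3.51, 12.2, 11.7 and 26.9 CPM in control libraries and at 5.05, 12.9, 22.1 and 4.27 CPM in knockout libraries. Its highest and lowest libraries were those of the control group, and its order was near that of Epcam. Summed over all 17 genes, the list was at 110 to 432 CPM in control libraries and 110 to 315 CPM in knockout libraries. None of the 12 tested genes had an unadjusted p under 0.05 between the genotypes in edgeR, 3 were higher in the knockout group, and the median log2 fold change was -0.37. None of the 17 was at 0 in every library. The part of other epithelia in the levels of Krt8, Krt18 and Krt19 was not tested.

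Single genes of other cell types also had a large r with Krt8. Those named here were singled out after their values were seen. Pdgfra, a receptor of stromal progenitors, was the sole one of 16 tested genes of its list with r of 0.8 or more with Krt8 (0.93). Over all genes tested 4.66% had such an r, and on the stromal list r went down to -0.69 for Cd55. Among 15 adipocyte genes 0 reached r of 0.8. The lipid droplet genes Cidec, Plin4 and Plin1 had the lowest r of that list with Krt8, -0.90, -0.79 and -0.74, and Retn the highest, -0.01. Control replicate 4, highest for Krt8 and smallest in total count, had the lowest endothelial sum, 714 CPM against 1017 to 1314 CPM in the other 7 libraries. The part of tissue makeup and of depth in the keratin levels was not tested.

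**Figure D4:**
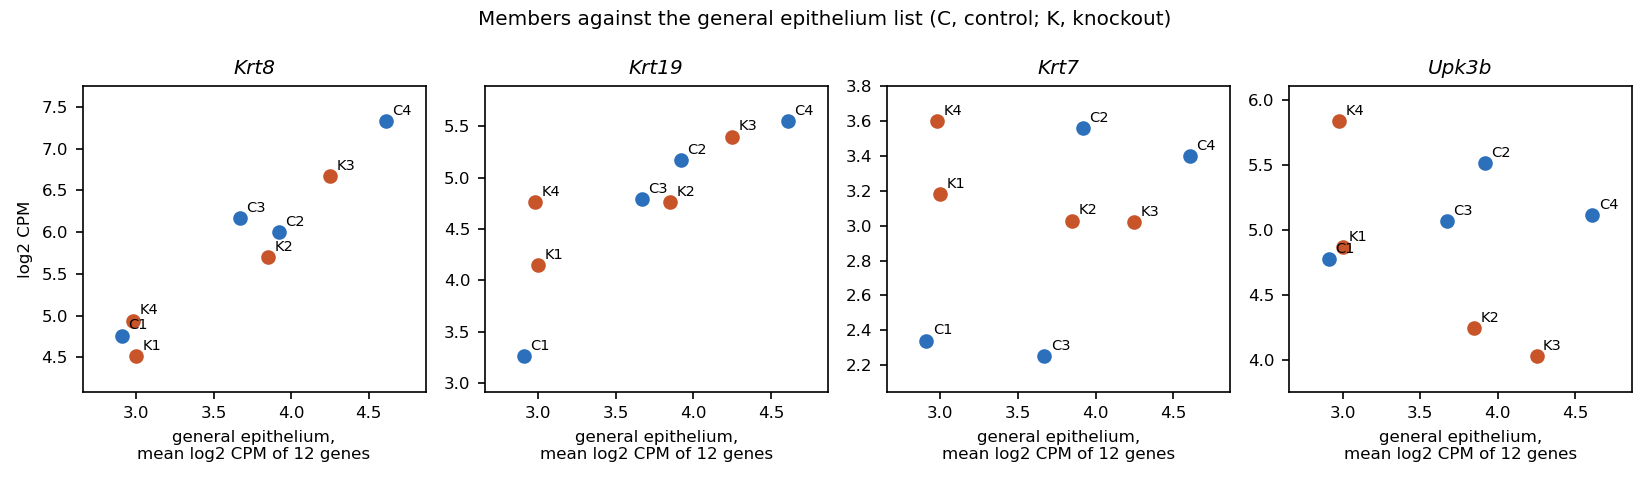
Log2 CPM of Krt8, Krt19, Krt7 and Upk3b (y axes) against the mean log2 CPM of the 12 general epithelium genes tested (x axes), one point a library (C, control; K, knockout; number, replicate). Krt8 climbs with the list (r = 0.97), while Upk3b has its highest point, knockout replicate 4, at a list mean of 2.98 and its lowest, knockout replicate 3, at 4.25.

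Desmosome and junction genes, which tie keratin filaments to the cell border, were listed as partners of the keratins. Of 19 listed, 14 were tested and 0 had an unadjusted p under 0.05 between the genotypes (edgeR), with 6 higher in the knockout group and a median log2 fold change of -0.11. The desmosomal cadherin Dsg2 had r = 0.97 with Krt8. Of the 14, 5 had r of 0.8 or more with Krt8, beside 4.66% of all genes tested. Cdh1, which is also on the general epithelium list, is among these 5. Other tested genes of this list ran the other way, with r down to -0.72 for Pkp2 and -0.70 for Pkp4. Dsg2 was at 6.15, 11.4, 14.9 and 36.9 CPM in control libraries and at 5.05, 14.2, 21.4 and 9.48 CPM in knockout libraries, with control replicate 4 and knockout replicate 3 highest. Dsg2 and the other desmosome genes named here were chosen after their values were seen, and their r is a description over 8 shared libraries. Of the 14, the neural cadherin gene Cdh2, which mesothelium is known to make, was the sole one with r of 0.8 or more with Upk3b (0.89). Over all genes tested 0.873% had such an r, and on this list r with Upk3b went down to -0.50 for F11r. Cdh2 had only 9 to 22.6 estimated counts a library.

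Other keratins were scarce. Of 21 listed, 3 were tested (Krt10, Krt79 and Krt80) and 8 were at 0 in all libraries, among them Krt5, Krt13, Krt16 and Krt17 of stratified epithelia. The list's summed level was 24.5 to 31.8 CPM in control libraries and 15.8 to 30.8 CPM in knockout libraries, and 0 of the 3 tested genes had an unadjusted p under 0.05 (edgeR). None of the 3 had an r of 0.8 or more with any member. Sequence shared with copies was checked for the members. Krt8 shares 621 of its 1928 words of 31 bases with the pseudogene Krt8-ps, and Krt18 shares 131 of 1407 with Gm5200. Krt8-ps and Gm5200 were at 0 counts in all 8 libraries, so no counts were assigned to these copies. Whether any reads counted for Krt8 or Krt18 came from a copy was not tested. Msln shares words with 1676 other genes, at most 76 of its 3215 words, with Syt12, which had 42.2 to 156 estimated counts a library where Msln had 4 to 32. Krt7 shares words with 2973 genes, at most 38 of its 7065, with Smyd3 on the other strand. How far these genes add to the low counts of Msln and Krt7 was not tested. No gene of the table overlaps a member.

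A wider list of 25 genes known from mesothelium held 18 tested genes. None passed an unadjusted p of 0.05 between the genotypes (edgeR), 11 of 18 were higher in the knockout group, and the median log2 fold change was 0.10. Its summed level was 936 to 1188 CPM in control libraries and 973 to 1391 CPM in knockout libraries, with the highest sum in knockout replicate 4 and the lowest in control replicate 1. Slpi, a secreted protease inhibitor, was at 25.9, 42.3, 37.2 and 21.2 CPM in control libraries and at 42.1, 19.8, 24 and 82.6 CPM in knockout libraries. Its highest library was knockout replicate 4, as for Upk3b, and its r was 0.78 with Upk3b and -0.50 with Krt8. Rspo1, a secreted Wnt agonist, was at 25.8, 58.2, 57 and 86.5 CPM in control libraries and at 37.1, 53.7, 69 and 44.6 CPM in knockout libraries. Its order was near that of Krt8, with control replicate 4 and knockout replicate 3 on top (r = 0.92 with Krt8, and -0.07 with Upk3b). Ezr, which links the membrane to actin, and Mpzl2, an adhesion gene, also had r of 0.93 and 0.91 with Krt8. Of the 18 tested genes, 3 had r of 0.8 or more with Krt8, 4 with Krt18, 3 with Krt19, 3 with Upk1b, 1 with Krt7 and 1 with Gpm6a, and 0 with Upk3b, Msln, Wt1 or Lrrn4. Over all genes tested the share with such an r was 4.66% for Krt8, 4.3% for Krt18, 2.42% for Krt19 and 0.601% to 0.873% for the other members. Rspo1, Ezr and Mpzl2 thus had an order near that of Krt8. Other genes of the wider list ran the other way, with r down to -0.71 for Cldn15 and -0.70 for Prg4. Slpi, Rspo1, Ezr, Mpzl2, Cldn15 and Prg4 were singled out after their values were seen. Calb2, which encodes the mesothelial protein calretinin, had 1 count in 1 library and none in the other 7.

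With the mean of the wider list, Upk1b had r = 0.84 (exact permutation p = 0.0106, adjusted p = 0.0531; rho = 0.71, exact permutation p = 0.0576, adjusted p = 0.192). Krt7 had r = 0.80 (exact permutation p = 0.021, adjusted p = 0.084; rho = 0.79, exact permutation p = 0.0279, adjusted p = 0.112). No member passed an adjusted p of 0.05 with this list. Without control replicate 2 and knockout replicate 4, the libraries farthest from its median, r was 0.30 for Upk1b and 0.67 for Krt7, so the relation of Upk1b rests on those libraries. For the other keratins r with this list was 0.18 for Krt8, 0.18 for Krt18 and 0.61 for Krt19 over 8 libraries, with exact permutation p-values of 0.665, 0.674 and 0.111 (adjusted p = 0.793, 0.793 and 0.246). Without the same 2 libraries r was 0.82 for Krt8, 0.75 for Krt18 and 0.99 for Krt19. The low r of Krt8 and Krt18 with the wider mesothelial list therefore rests on control replicate 2 and knockout replicate 4.

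Markers of other cell types were listed as well. Of 25 epididymis genes, 10 were at 0 in all libraries, among them Crisp1, Lcn5, Lcn8 and Pate4, and the list's summed level was 136 to 159 CPM in control libraries and 98.7 to 157 CPM in knockout libraries, most of it Sult1e1. Adam7, made in the epididymis, had 22 counts in knockout replicate 3, 9 in control replicate 2 and 0 or 1 in the other 6. Aqp9, a glycerol and water channel on the same list, was at 4.54, 8.37, 8.52 and 19.2 CPM in control libraries and at 7.1, 16.1, 16.9 and 5.25 CPM in knockout libraries (r = 0.82 with Krt8). The other tested genes of this list, Sult1e1 and Adam28, had r of 0.11 and -0.18 with Krt8. Over all genes tested 4.66% had an r of 0.8 or more with Krt8. Adam7 and Aqp9 were singled out after their values were seen. The neural and Schwann list, relevant to Gpm6a, was at 46.9 to 66.4 CPM in control libraries and 53.8 to 66.7 CPM in knockout libraries, with 1 of 12 genes at 0 throughout. None of its 5 tested genes had r of 0.8 or more with Gpm6a.

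Genes of the cell type lists with an unadjusted p under 0.05 between the genotypes lay outside the epithelial and mesothelial lists. Of 16 macrophage genes tested, 12 had an unadjusted p under 0.05 and 6 an adjusted p under 0.05 (edgeR), all higher in the knockout group. They included Mmp12, Ctss, Lyz2 and Lgals3, with log2 fold changes of 2.0, 1.21, 0.85 and 0.96 and edgeR adjusted p-values of 0.000147, 0.000666, 0.00776 and 0.00776. The macrophage list's summed level was 1182 to 1408 CPM in control libraries and 2051 to 2463 CPM in knockout libraries, with no overlap, and 0 of its 16 tested genes had r of 0.8 or more with any member. On the other lists 5 genes had an unadjusted p under 0.05, none past an adjusted p of 0.05 in edgeR: Retn (log2 fold change -0.65, adjusted p = 0.0731), F3 (-0.76, adjusted p = 0.26), Sfrp4 (1.27, adjusted p = 0.52), Vwf (-0.69, adjusted p = 0.733) and Uchl1 (1.13, adjusted p = 0.695).

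The genes most like the mean of the 10 members, by Pearson r over 8 libraries as deviations from the genotype means, were D11Wsu47e and Rabep1 (r = 0.96), Tradd and Pip4k2c (0.95), Hlx (0.94), and Nkd1, Slc33a1 and Osbpl9 (0.93). That mean joins the pattern of Krt8, Krt18 and Krt19 with the levels of the other members, Krt7 among them. Taken alone, and chosen after the values had been seen, Krt8 was most like Tbx2, a T-box transcription factor (r = 1.00), which ran from 10.5 to 62.8 CPM and was highest in control replicate 4. Upk3b was most like Klf13 (r = 0.98), which ran from 172 to 231 CPM and was highest in knockout replicate 4. These r values are the top of a ranking of 12479 genes and are given as descriptions.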

How the data were processed

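BRB-seq, which reads the 3′ ends of transcripts after oligo-dT priming and Tn5 tagmentation, was used on total RNA, per the labels' protocols. The authors deposited a table of estimated counts per gene, without normalization; Salmon and the GRCm38 build are named in the submitters' processing notes, while annotation release, settings and any molecular identifiers are not given in the sources used here. Counting intervals cover counting error only. Of the deposited values above 0, 59.6% were whole.

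Identifiers were matched without version to GENCODE M21 (34652 of 34866). Counts were rounded and fitted over all genes with edgeR 4.0.16 in R 4.3.3 (robust quasi-likelihood F test, genotype only, TMM, filterByExpr, Benjamini-Hochberg). CPM used the TMM-scaled totals of the 12480 tested genes. Standard errors are the log2 fold change divided by the root of F. Correlations were tested over all orderings of 8 libraries in Python with scipy 1.17.1. Replicate pairs differed by more than sampling noise (chi-square per degree of freedom 4.49 to 9.42). The tests were run first on simulated data. Other settings tried were upper-quartile and RLE scaling, no filter, a filter on 80 counts in total, DESeq2 1.42.0, limma 3.58.1 (voom with quality weights), the replicate number as a block, and each library left out.

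The members and lists were chosen with earlier results of these data known. Named genes are Cyp19a1, the 10 members, up to 4 genes a list with an unadjusted p under 0.05, and the 8 genes most like the members' mean; others are marked as chosen after their values were seen.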

Additional observations from a re-analysis of the deposited data

Results flagged for a closer look

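Dixon's test at the 95% level was applied to the CPM of each member within each genotype, 20 sets of 4 libraries. It marked 1 library, and chance gives about 1. This was control replicate 2 for Msln, with 12.6 CPM from 30 estimated counts, while control replicates 1, 3 and 4 had 4.19, 5.38 and 5.13 CPM.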

How the results depend on the processing

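No member passed an adjusted p of 0.05 under any setting run, and 0 had an unadjusted p under 0.05 except without knockout replicate 4, where 1 did (Upk3b). The median log2 fold change of the members was -0.08 and lay between -0.32 and 0.22 when 1 library was left out. Over all genes, 21 passed in the main setting, 58 without a low-count filter, 55 with DESeq2, 6 with the replicate block and 4 (without control replicate 2) to 43 (without control replicate 4) with 1 library left out. Same-numbered libraries deviated from their group means with correlations of 0.25, -0.06, -0.01 and -0.24. Whether libraries of the same number share a batch cannot be known from these values. Krt19, at -0.03, turned to 0.24 with limma-voom and 0.03 with the replicate block. With 1 library left out the log2 fold change was -0.36 to 0.26 for Krt19, -0.52 to 0.36 for Msln, -0.75 to 0.01 for Upk3b and -0.05 to 0.62 for Upk1b, and these changed sign. It was -1.18 to -0.05 for Krt8, -0.68 to 0.00 for Krt18, 0.07 to 0.57 for Krt7, -0.56 to -0.09 for Wt1, 0.01 to 0.46 for Lrrn4 and 0.09 to 0.62 for Gpm6a. Pairs of members with r of 0.8 or more numbered 5, but 3 without the 2 libraries farthest from the median, 9 as deviations from the genotype means (chosen after seeing the data) and 5 to 7 with 1 library left out. The r of Krt8 and Krt18 lay between 0.95 and 0.98 with 1 library left out, and that of Krt8 with the epithelium list between 0.95 and 0.98. Krt8 and Upk3b turned from -0.19 to 0.35 without the 2 farthest libraries and lay between -0.36 and 0.05 with 1 left out. Without the 2 farthest libraries r with the epithelium list turned to -0.26 for Krt7 and -0.86 for Lrrn4, and r with the wider mesothelial list to -0.20 for Msln, -0.18 for Upk3b and -0.17 for Wt1, while it went from 0.18 to 0.82 for Krt8, 0.18 to 0.75 for Krt18 and 0.61 to 0.99 for Krt19. The cause was not tested. Members with under 50 counts a library are limited by depth.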
